A study of Mus musculus with 6 samples.

Results

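Interleukin receptors are assembled from separate chains, and the chains described here are the 10 receptor genes Il13ra2, Il13ra1, Il4ra, Il1r1, Il1rl1, Il1rap, Il6st, Il6ra, Il11ra1 and Il10rb out of 29955 genes measured by RNA-seq in mouse embryonic fibroblasts (MEFs). The list was drawn up around Il13ra2 because that gene was strongly higher in Rnf40-/- MEFs. The genes were thus chosen by the normalized counts of Il13ra2 in the same libraries, and its own change is given as a description without a test. The other 9 genes encode further cytokine receptor chains, of the IL-4 and IL-13, IL-1, gp130 and IL-10 receptor families. All 10 genes were found in the table by symbol. Il13ra2 had enough reads to be tested only through its Rnf40-/- libraries, while the other 9 genes had at least 58 reads in every library.

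RNF40 is an E3 ubiquitin ligase that, together with RNF20, places a single ubiquitin on histone H2B. The study compared 3 libraries of Rnf40+/+ MEFs with 3 libraries of Rnf40-/- MEFs, all from primary cells at passage 3. The knockout cells came from embryos in which exons 3 and 4 of both Rnf40 alleles lay between loxP sites and which carried Rosa26-CreERT2, a Cre recombinase expressed in all cell types and switched on by tamoxifen. Deletion was induced with 250 nM 4-hydroxytamoxifen (4-OHT) over 5 days, and the drug was then left out for 3 days. The labels attach this protocol, worded as one for the knockout, to all 6 samples. It is therefore not clear whether the Rnf40+/+ cells sequenced carried the Cre or received 4-OHT, and effects of the deletion, the Cre and the drug cannot be told apart. Nor do they say whether the 3 libraries of a genotype came from separate embryos, so p values measure the spread between these libraries, which may be technical. Values are normalized counts, that is reads on a gene divided by 1 size factor per library.

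The 6 libraries held between 17053436 and 26344170 reads on genes, and 3 reads corresponded to between 2.40 and 3.58 normalized counts. The targeted gene was lower in every knockout library, with 1278, 1195 and 1096 normalized counts of Rnf40 in Rnf40+/+ MEFs and 439, 519 and 487 in Rnf40-/- MEFs. Over the whole gene 40.5% of the Rnf40+/+ level remained, a log2 fold change of -1.30 with a standard error (SE) of 0.089 (limma adjusted p = 4.25e-07). Here and in what follows, p values are from limma and were adjusted by the Benjamini-Hochberg method across all tested genes. Both genotypes expressed the fibroblast markers, whose summed level was between 453156 and 514690 normalized counts in Rnf40+/+ and between 252301 and 265312 in Rnf40-/- MEFs. Of 10 fibroblast markers 9 were lower in Rnf40-/- MEFs (limma adjusted p under 0.05). Among all genes tested, 24.1% were lower and 23.3% were higher by the same criterion. Each count of higher or lower genes in what follows stands beside these shares. A pair of Rnf40+/+ libraries stood apart from the others. Replicate 3 had the highest summed level of macrophage markers (range 7647 to 14121 in Rnf40+/+ and 4720 to 5322 in Rnf40-/- MEFs), and replicate 1 held reads of the Y-linked gene Ddx3y (81.2 normalized counts, against at most 7.14 elsewhere) although Xist was high in all 6 libraries. Values without each of these libraries are given where they change the call of a receptor chain.

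Most of these receptors work as complexes of chains that bind the cytokine, transmit the signal or do both. IL-4Rα, encoded by Il4ra, pairs with IL-13Rα1 to form a receptor for both IL-4 and IL-13, which signals through JAK kinases and STAT6 and which is the main receptor for these cytokines in fibroblasts. IL-13Rα2 binds IL-13 with high affinity but has only a short cytoplasmic tail, and is best known as a decoy that takes IL-13 away from the signalling receptor. IL-1R1 and ST2, the IL-33 receptor encoded by Il1rl1, belong to the IL-1 receptor family and share the accessory chain encoded by Il1rap. Il6st encodes gp130, the signalling chain used by the IL-6 and IL-11 receptor α chains, and Il10rb encodes a chain shared by the receptors for IL-10, IL-22 and type III interferons.

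Promoter sequences are shown for the chain with the largest rise, for the closest relative of that chain and for the chain with the largest fall. They were taken from RefSeq (GRCm38.p6) and run from 250 bases before to 50 bases after the annotated start, 5′ to 3′ on the strand of the gene. Capitals mark matches to any of 9 motifs searched on both strands, and a match is a description of the letters only. Il13ra2 lies at chrX:147429143-147429442 (minus strand), Il13ra1 at chrX:36111858-36112157 (plus strand), the distal start of Il1rl1 at chr1:40429320-40429619 (plus strand) and its proximal start at chr1:40439379-40439678 (plus strand).
Il13ra2: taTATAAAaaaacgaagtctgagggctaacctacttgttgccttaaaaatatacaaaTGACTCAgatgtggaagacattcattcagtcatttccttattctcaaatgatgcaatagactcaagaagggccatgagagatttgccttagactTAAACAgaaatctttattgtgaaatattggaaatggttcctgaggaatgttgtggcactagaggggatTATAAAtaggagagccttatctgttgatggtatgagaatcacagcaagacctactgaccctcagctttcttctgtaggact
Il13ra1: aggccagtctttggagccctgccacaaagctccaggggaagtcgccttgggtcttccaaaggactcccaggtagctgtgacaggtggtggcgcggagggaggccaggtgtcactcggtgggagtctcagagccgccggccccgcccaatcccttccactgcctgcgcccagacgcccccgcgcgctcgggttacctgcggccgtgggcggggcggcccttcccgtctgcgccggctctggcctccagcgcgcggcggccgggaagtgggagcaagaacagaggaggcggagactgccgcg
Il1rl1, distal start: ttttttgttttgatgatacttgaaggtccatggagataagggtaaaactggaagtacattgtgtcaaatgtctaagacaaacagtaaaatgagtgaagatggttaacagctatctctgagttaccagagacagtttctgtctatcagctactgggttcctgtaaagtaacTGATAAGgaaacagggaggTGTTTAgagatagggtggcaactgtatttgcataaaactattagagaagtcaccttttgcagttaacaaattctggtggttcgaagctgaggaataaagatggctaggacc
Il1rl1, proximal start: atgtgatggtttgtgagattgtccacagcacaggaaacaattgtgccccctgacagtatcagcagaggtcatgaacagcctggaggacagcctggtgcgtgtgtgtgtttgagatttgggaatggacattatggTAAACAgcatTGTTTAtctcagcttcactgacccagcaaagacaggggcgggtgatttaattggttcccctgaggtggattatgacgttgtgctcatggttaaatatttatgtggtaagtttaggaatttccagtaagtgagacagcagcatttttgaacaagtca

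The promoter of Il13ra2 was poor in CpG dinucleotides, with 1 CpG in 300 bases and a GC content of 37.7%, and 5.43% of 32851 RefSeq promoters had fewer. That of Il13ra1 had 28 CpG and a GC content of 71%, and 85.8% of promoters had fewer. Il13ra2 held a match to the AP-1 site TGANTCA whose first base lay at -193, a motif found in 7.81% of all promoters. It also held the TATA box letters TATAAA at -248 and at -31 (13.6% of promoters) and the forkhead core TAAACA at -99 (13.4% of promoters). The distal start of Il1rl1 held the GATA core TGATAAG at -80 (2.3% of promoters) and the forkhead core on the opposite strand at -61. The proximal start held the forkhead core at -116 and, on the opposite strand, at -106. The cyclic AMP response element TGACGTCA (1.79% of promoters), the STAT site TTCNNNGAA (8.3%) and the same site with a spacer of 4 bases (6.95%), the NF-kB site (8.46%) and the SRF CArG box (1.63%) had no match in these 4 windows. Promoters of 9 of the 10 genes were in the table. Among the remaining starts, Il6st and Il1rap had 33 CpG each, Il4ra and Il6ra 25 each, the starts of Il1r1 5 and 14 and those of Il11ra1 7 and 3, against a median of 7 over all promoters. The NF-kB site was found in the promoters of Il4ra and Il1r1. Of these 12 starts, those of Il13ra2 and the distal start of Il1rl1 had the fewest, with 1 CpG each.

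Il13ra2 was close to the limit of detection in Rnf40+/+ MEFs and clearly expressed in Rnf40-/- MEFs. The gene (ENSMUSG00000031289, chrX:143818019-143863735 of mm9, minus strand) had 7, 12 and 1 reads in the Rnf40+/+ and 248, 209 and 227 reads in the Rnf40-/- libraries. The normalized counts were 8.36, 12.2 and 0.799 in Rnf40+/+ MEFs and 253, 218 and 214 in Rnf40-/- MEFs. The lowest Rnf40-/- library was thus far above the highest Rnf40+/+ library, and the 3 Rnf40-/- libraries lay close together. The means were 7.13 ± 5.82 and 228 ± 21.2 (mean ± SD, n = 3 each), a ratio of 32.0. The log2 fold change, taken on normalized counts plus 1, was 5.24 (SE 0.57), the second largest rise of 16378 genes tested. Its size rests on the few reads of the Rnf40+/+ libraries. It was 4.36 without Rnf40+/+ replicate 3, which had 1 read, and at most 5.80 with another library left out. Since this rise was the reason for the choice of genes, no p value is given for it. A soluble form of the receptor is known in mouse, and the deposited values do not separate the 3 annotated transcripts.

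**Figure D1:**
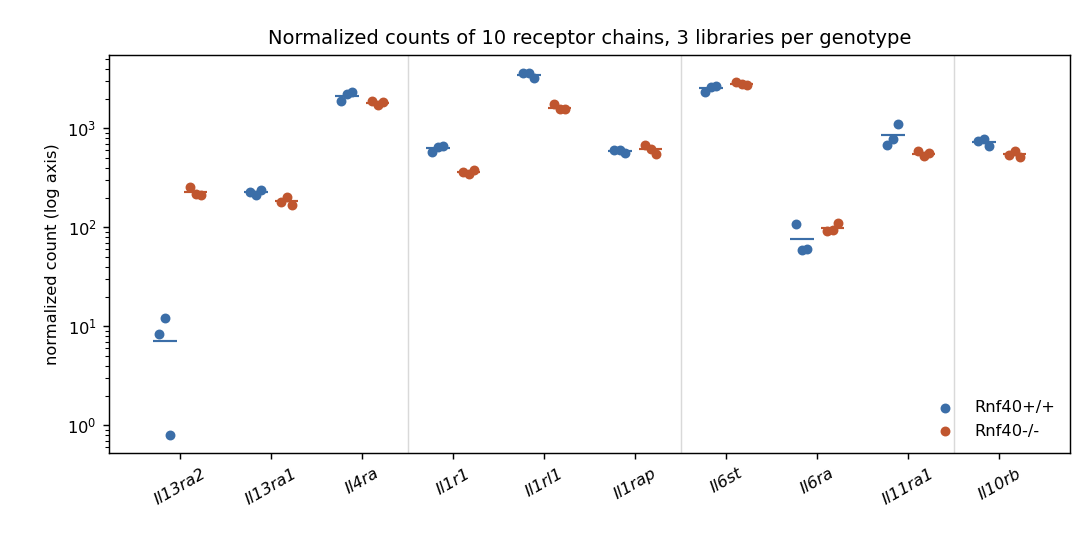
Normalized counts (log axis) of the 10 receptor chains, ordered by receptor family, with 1 point per library for 3 Rnf40+/+ (blue) and 3 Rnf40-/- (orange) libraries and a bar at each mean. The Rnf40-/- libraries of Il13ra2 lie between 214 and 253 and its Rnf40+/+ libraries between 0.799 and 12.2, while the libraries of the other 9 genes differ much less between genotypes.

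The 2 chains that form the signalling receptor for IL-13 did not rise with Il13ra2. Il13ra1 (ENSMUSG00000017057, chrX:33652105-33711254, plus strand) had 229, 214 and 236 normalized counts in Rnf40+/+ MEFs and 180, 204 and 170 in Rnf40-/- MEFs. All 3 Rnf40-/- libraries were below the Rnf40+/+ libraries, but the log2 fold change of -0.30 (SE 0.12) did not pass the threshold (limma adjusted p = 0.0647). Both IL-13 receptor chains are X-linked, and the 493 X-linked genes tested had a median log2 fold change of -0.10 against -0.011 for 13471 autosomal genes.

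Il4ra (ENSMUSG00000030748, chr7:132695785-132722986, plus strand) had 1894, 2220 and 2322 normalized counts in Rnf40+/+ MEFs and 1885, 1712 and 1838 in Rnf40-/- MEFs. The lowest Rnf40+/+ and the highest Rnf40-/- library were nearly level. Il4ra was lower by a log2 fold change of -0.24 (SE 0.082; limma adjusted p = 0.0308), which depended on single libraries. It was -0.33 (adjusted p = 0.00356) without Rnf40+/+ replicate 1. It no longer passed without Rnf40+/+ replicate 2 (-0.21, adjusted p = 0.0987), Rnf40+/+ replicate 3 (-0.18, adjusted p = 0.0808), Rnf40-/- replicate 1 (-0.27, adjusted p = 0.055), Rnf40-/- replicate 2 (-0.20, adjusted p = 0.127) or Rnf40-/- replicate 3 (-0.25, adjusted p = 0.065), all from limma.

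The balance between the IL-13 binding chains was compared per transcript length, as RPKM, which divides the reads by the length of the longest annotated transcript and by the reads on genes of the library. Il13ra2 made up 5.6%, 8.51% and 0.549% of the summed RPKM of Il13ra1 and Il13ra2 in Rnf40+/+ replicates 1 to 3. The share was 69.5%, 63.6% and 67.2% in Rnf40-/- replicates 1 to 3. In Rnf40+/+ MEFs nearly all of this sum was Il13ra1, whereas in each Rnf40-/- library Il13ra2 was the more abundant of the pair. The RPKM of Il4ra over that of Il13ra1 was 6.92 ± 0.801 in Rnf40+/+ and 7.21 ± 0.945 in Rnf40-/- MEFs (mean ± SD, n = 3 each), and the groups overlapped. These shares include the rise of Il13ra2 that chose the genes and were not tested.

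**Figure D2:**
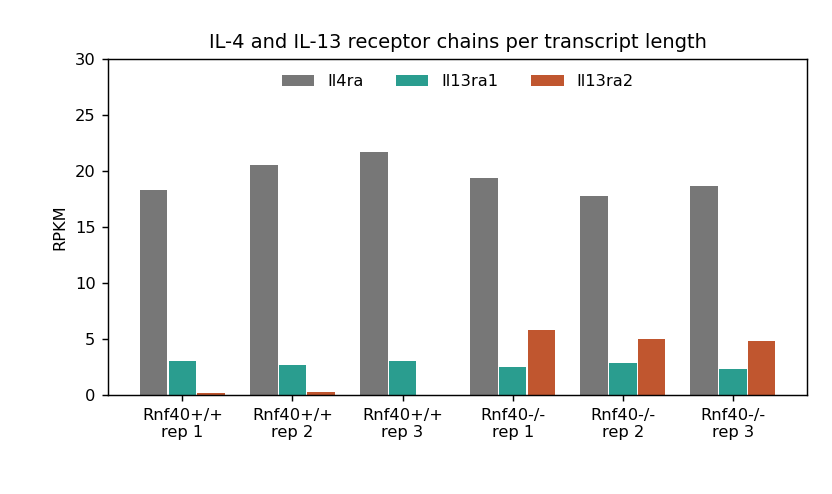
RPKM of Il4ra (grey), Il13ra1 (green) and Il13ra2 (orange) in each of the 6 libraries, with 1 bar per gene and library. Il13ra2 rises from at most 0.253 RPKM in Rnf40+/+ to between 4.86 and 5.8 RPKM in Rnf40-/- libraries, above Il13ra1 and below Il4ra in the same libraries.

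The ligands IL-4 and IL-13 were nearly absent from the MEFs themselves. Il4 had no read in any of the 6 libraries and Il13 had 1 read in all, in Rnf40-/- replicate 2. Il2rg, the common γ chain with which IL-4Rα forms its other receptor, had 46.6, 47.9 and 72.7 normalized counts in Rnf40+/+ and 51.0, 50.1 and 68.0 in Rnf40-/- MEFs. Its groups overlapped (log2 fold change 0.032, SE 0.24, limma adjusted p = 0.926), and the sign of that difference turned without Rnf40+/+ replicate 1 or 2 or Rnf40-/- replicate 3.

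Over all 9 tested chains other than Il13ra2, 5 passed the threshold of 0.05 for the adjusted p as lower in Rnf40-/- MEFs and none as higher. Among all 16378 genes tested, 24.1% were lower and 23.3% were higher by the same criterion. The 5 lower chains were Il1rl1, Il1r1, Il11ra1, Il10rb and Il4ra, and Il13ra1, Il1rap, Il6st and Il6ra did not pass. The libraries of the 2 genotypes did not overlap for 7 of the 9 chains, which was so for 56.5% of all genes tested. The 9 chains had a median log2 fold change of -0.30, against -0.0035 over all genes tested. Without Il4ra's call, which most libraries left out removed, 4 chains were lower, and without Rnf40+/+ replicate 1 or 3 a chain was higher (Il6ra and Il6st, respectively).

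**Figure D3:**
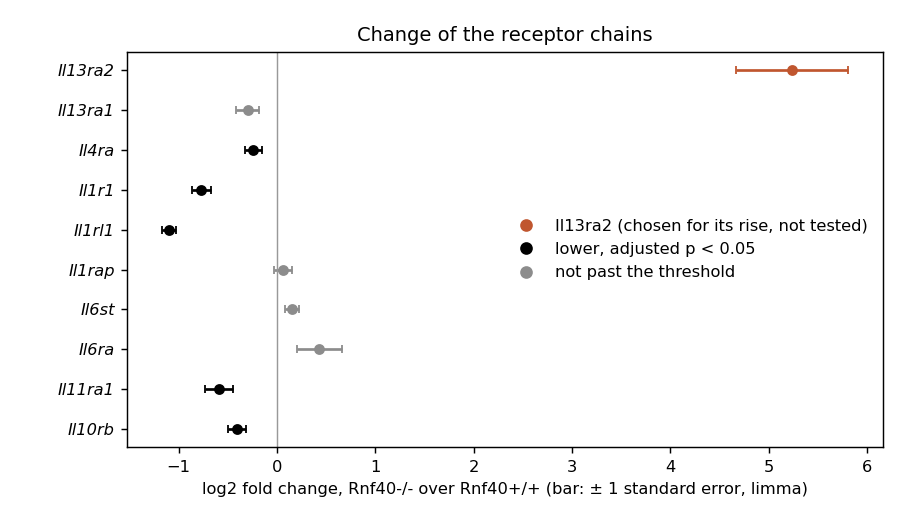
Log2 fold change (Rnf40-/- over Rnf40+/+) of the 10 receptor chains with bars of 1 standard error from limma. Il13ra2 (orange, not tested) stands at 5.24, the 5 chains lower with an adjusted p under 0.05 (black) lie between -1.10 and -0.24, and the other 4 (grey) lie between -0.30 and 0.43.

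The largest fall was that of Il1rl1, which was also the most abundant of the chains per transcript length in Rnf40+/+ MEFs. Il1rl1 (ENSMUSG00000026069, chr1:40486415-40522260 of mm9, plus strand) had 3582, 3646 and 3244 normalized counts in Rnf40+/+ MEFs and 1750, 1569 and 1551 in Rnf40-/- MEFs. The groups were far apart, and 46.5% of the Rnf40+/+ level remained. This was a log2 fold change of -1.10 (SE 0.073; limma adjusted p = 3.09e-07), which lay between -1.16 and -1.07 when any 1 library was removed. ST2 is made as a membrane receptor or as a soluble form from different starts and ends of the gene, and the deposited values, summed over 5 annotated transcripts, do not separate them.

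Il1r1, the signalling receptor for IL-1, fell as well. The gene (ENSMUSG00000026072, chr1:40281925-40373043, plus strand) had 572, 641 and 670 normalized counts in Rnf40+/+ MEFs and 365, 349 and 384 in Rnf40-/- MEFs, without overlap. The log2 fold change was -0.77 (SE 0.093; limma adjusted p = 3.39e-05), and it stayed between -0.84 and -0.73 with each library left out.

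Il1rap, the accessory chain that both receptors need, had 608, 601 and 558 normalized counts in Rnf40+/+ and 678, 620 and 553 in Rnf40-/- MEFs (ENSMUSG00000022514, chr16:26581790-26730203, plus strand). The libraries of the 2 genotypes overlapped. The log2 fold change of 0.063 (SE 0.093; limma adjusted p = 0.602) turned to -0.0069 without Rnf40-/- replicate 1. The RPKM of Il1rl1 over that of Il1rap was 5.05 ± 0.113 in Rnf40+/+ and 2.25 ± 0.124 in Rnf40-/- MEFs (mean ± SD, n = 3 each), and that of Il1r1 over Il1rap was 1.0 ± 0.121 and 0.56 ± 0.0787. The libraries of the 2 genotypes did not overlap in either ratio.

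Il1r1 and Il1rl1 lie in a cluster of IL-1 receptor family genes on chromosome 1, whose members did not all fall. Of 6 cluster genes 5 were tested, and Il1r1 and Il1rl1 were lower while Il18rap was higher. Il18rap, the accessory chain of the IL-18 receptor, had 89.6, 138 and 104 normalized counts in Rnf40+/+ and 201, 206 and 157 in Rnf40-/- MEFs (log2 fold change 0.77, SE 0.18, limma adjusted p = 0.00401). Il18r1, the chain with which it pairs, was close to the limit of detection, with 8.53 ± 3.35 and 10.1 ± 1.5 normalized counts (mean ± SD, n = 3 each), and did not pass (limma adjusted p = 0.652). Il1rl2, the IL-36 receptor, had 70.4 ± 1.16 and 54.8 ± 18.6 normalized counts and did not pass either (limma adjusted p = 0.205). The decoy receptor gene Il1r2 had too few reads to be tested.

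Among the ligands of the IL-1 family, those of the IL-18 and IL-33 receptors rose from low levels. Il33, the ligand of ST2, had 28.7, 36.7 and 45.5 normalized counts in Rnf40+/+ and 66.3, 87.7 and 82.1 in Rnf40-/- MEFs, without overlap (log2 fold change 1.08, SE 0.23, limma adjusted p = 0.00246). Il18 rose from 25.3 ± 8.88 to 84.1 ± 3.14 normalized counts (mean ± SD, n = 3 each; log2 fold change 1.75, SE 0.27, limma adjusted p = 0.000261). Il1rn, the antagonist that blocks IL-1R1, fell from 914 ± 28.3 to 556 ± 74.8 (log2 fold change -0.72, SE 0.10, limma adjusted p = 9.98e-05). The agonists Il1a and Il1b had too few reads to be tested. In the whole list of IL-1 family partners and ligands, 3 of 6 tested genes were higher (Il33, Il18 and Il18rap) and 1 was lower (Il1rn).

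Transcripts of ST2 are also known from mast cells and macrophages, so the markers of these cells are given beside the values above. Of 8 mast cell markers 3 were tested and 2 were higher in Rnf40-/- MEFs, both of which entered the test only through their Rnf40-/- libraries. Cma1 had 2.9 ± 2.0 and 42.4 ± 4.2 normalized counts and Mcpt4 1.73 ± 2.05 and 15.7 ± 1.81 (mean ± SD, n = 3 each). The defining marker Tpsb2 had no read in any library and Fcer1a had 1 read in all, while Kit and Cpa3 had at most 16.7 and 6.26 normalized counts. The summed level of the 8 genes was between 12.0 and 34.6 in Rnf40+/+ and between 79.3 and 104 in Rnf40-/- MEFs. Of 13 macrophage markers tested, 6 were lower and 2 (Ptprc and Cd14) were higher. C1qa had 386, 395 and 1211 normalized counts in Rnf40+/+ and 144, 140 and 190 in Rnf40-/- MEFs, so that replicate 3 of Rnf40+/+ was the highest library. The part of mast cell or macrophage RNA in the values of Il1rl1 and of the other chains was not tested, and fewer cells of a type cannot be told apart from less RNA per cell in such bulk samples.

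The chains that use gp130 behaved unevenly. Il6st (ENSMUSG00000021756, chr13:113265216-113297068, plus strand) had 2331, 2640 and 2673 normalized counts in Rnf40+/+ and 2916, 2830 and 2722 in Rnf40-/- MEFs. The groups did not overlap, but they lay close together, and the log2 fold change of 0.15 (SE 0.07) did not pass (limma adjusted p = 0.1). It was 0.19 (limma adjusted p = 0.0474) without Rnf40+/+ replicate 3 and 0.087 (limma adjusted p = 0.35) without Rnf40+/+ replicate 1.

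Il6ra (ENSMUSG00000027947, chr3:89673246-89717084, minus strand) was the least abundant chain per transcript length in Rnf40-/- MEFs. It had 107, 59.1 and 60.7 normalized counts in Rnf40+/+ and 91.8, 93.9 and 111 in Rnf40-/- MEFs. Replicate 1 of Rnf40+/+ lay among the Rnf40-/- libraries and the other two lay below them. The log2 fold change was 0.43 (SE 0.23; limma adjusted p = 0.15). Without that replicate it was 0.71 and passed (limma adjusted p = 0.00952), and without Rnf40+/+ replicate 2 it was 0.28 (limma adjusted p = 0.4).

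Il11ra1 fell. The gene (ENSMUSG00000073889, chr4:41647021-41716347, plus strand) had 674, 789 and 1097 normalized counts in Rnf40+/+ and 584, 524 and 560 in Rnf40-/- MEFs. All Rnf40-/- libraries were below the Rnf40+/+ libraries, among which replicate 3 was far above the others. The log2 fold change was -0.59 (SE 0.14; limma adjusted p = 0.00501), and -0.39 (limma adjusted p = 0.00399) without that replicate. Of all 50-base windows in its transcripts, 40.0% were also found in Gm13305, Gm2002 and Il11ra2, and the annotated gene overlaps Galt on the same strand and further genes on the opposite strand. How reads on shared sequence were assigned is not given in the sources used here, so the count of Il11ra1 is uncertain.

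Other genes of the gp130 receptors moved in both directions. The receptor chains Lifr, for leukemia inhibitory factor, and Osmr, for oncostatin M, were higher. Lifr had 220, 267 and 255 normalized counts in Rnf40+/+ and 359, 417 and 308 in Rnf40-/- MEFs (log2 fold change 0.54, SE 0.13, limma adjusted p = 0.00481). Osmr rose from 2570.7 ± 22.8 to 3190.9 ± 222 normalized counts (mean ± SD, n = 3 each; log2 fold change 0.31, SE 0.067, limma adjusted p = 0.00243). The ligands Il6, Clcf1, Lif and Ctf1 were lower. Il6 had 127, 177 and 193 normalized counts in Rnf40+/+ and 115, 103 and 74.6 in Rnf40-/- MEFs (log2 fold change -0.76, SE 0.20, limma adjusted p = 0.00916), and Clcf1 fell from 537 ± 85.5 to 343 ± 17.9 (log2 fold change -0.64, SE 0.12, limma adjusted p = 0.000947). In this list 2 of 11 tested genes were higher and 4 were lower, with a median log2 fold change of -0.19. The count of lower genes fell to 3 without Rnf40+/+ replicate 1 or 2 or Rnf40-/- replicate 1, and to 2 without Rnf40-/- replicate 3.

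Il10rb fell, and the gene that overlaps it did not pass. Il10rb (ENSMUSG00000022969, chr16:91406409-91426074, plus strand) had 746, 787 and 660 normalized counts in Rnf40+/+ and 538, 585 and 518 in Rnf40-/- MEFs, without overlap. The log2 fold change was -0.41 (SE 0.091; limma adjusted p = 0.00272) and stayed between -0.49 and -0.36 with each library left out. Annotated transcripts of Il10rb share 17.4% of their 50-base windows with Ifnar2, an interferon receptor chain that overlaps it on the same strand. Ifnar2 had 969 ± 109 and 987 ± 9.86 normalized counts (mean ± SD, n = 3 each; log2 fold change 0.033, limma adjusted p = 0.779), so the reads of both genes are uncertain where they overlap. In the list of IL-10 and interferon receptor genes, 1 of 7 tested genes was higher and 2 were lower. Ifnar1, the other chain of the type I interferon receptor, rose from 2306.7 ± 63.2 to 3354 ± 145 normalized counts (log2 fold change 0.54, SE 0.063, limma adjusted p = 2.58e-05). Ifngr2, the signalling chain of the interferon γ receptor, fell from 3413.6 ± 130 to 2869 ± 60.9 (log2 fold change -0.25, SE 0.061, limma adjusted p = 0.00505). The other lower gene, Il20ra, had 26.4 ± 14.4 and 6.42 ± 2.37 normalized counts and entered the test only through its Rnf40+/+ libraries, so no p is given. Il10ra, the chain that binds IL-10 itself, was low in both genotypes (29.6 ± 5.51 and 26.1 ± 2.93 normalized counts) and Il10 had no read.

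The chains differed widely in level. By the length of the longest transcript, Rnf40+/+ MEFs had 31.6 RPKM of Il1rl1, 23.4 of Il6st, 20.2 of Il4ra, 15.7 of Il11ra1 and 12.6 of Il10rb. Lower levels were found for Il1rap (6.25 RPKM), Il1r1 (6.23 RPKM), Il13ra1 (2.92 RPKM), Il6ra (1.09 RPKM) and Il13ra2 (0.15 RPKM). The ranges of Il4ra and Il11ra1, of Il11ra1 and Il10rb, and of Il1rap and Il1r1 overlapped over 3 libraries, and other neighbours in this order did not overlap. In Rnf40-/- MEFs the order began with Il6st (28.4 RPKM), Il4ra (18.6 RPKM) and Il1rl1 (16.0 RPKM), followed by Il11ra1 (11.2 RPKM) and Il10rb (10.3 RPKM), which overlapped. Il1rap (7.14 RPKM) came next, then Il13ra2 (5.24 RPKM), Il1r1 (3.96 RPKM), Il13ra1 (2.6 RPKM) and Il6ra (1.55 RPKM). By this length Il1rl1 went from rank 1 to rank 3 and Il13ra2 from rank 10 to rank 7. The summed RPKM of the 10 chains was 120 ± 3.25 in Rnf40+/+ and 105 ± 4.27 in Rnf40-/- MEFs (mean ± SD, n = 3 each). With the shortest instead of the longest annotated transcript as the length, 40 of the 45 pairs of genes kept their order in Rnf40+/+ MEFs. The rank change of Il1rl1 was then lost, as it had the highest level in both genotypes (446 and 226 RPKM), whereas Il13ra2 still went from the lowest level (0.241 RPKM) to one between Il6st and Il1r1 (8.41 RPKM).

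Receptor chains outside the families above were also examined, and 10 of 14 tested did not pass. Il17ra, the common chain of the IL-17 receptors, was higher. Il23r and Il31ra were higher as well, but had few reads and entered the test only through their Rnf40-/- libraries, so their values are given without a p. With at least 10 reads required in every library, the count of higher chains was 1 instead of 3. Il31ra, the gp130-like chain of the IL-31 receptor, had 9.55, 2.04 and 7.19 normalized counts in Rnf40+/+ and 24.5, 29.2 and 32.1 in Rnf40-/- MEFs (log2 fold change 2.20, SE 0.48). Il23r had 5.97, 0.0 and 0.799 normalized counts in Rnf40+/+ and 18.4, 15.7 and 16.1 in Rnf40-/- MEFs (log2 fold change 2.93, SE 0.70, and between 2.32 without Rnf40+/+ replicate 2 and 3.72 without Rnf40+/+ replicate 1). Il21r was lower, with 29.0 ± 4.05 and 15.4 ± 3.05 normalized counts (mean ± SD, n = 3 each; log2 fold change -0.88, SE 0.31, limma adjusted p = 0.0364). That call was lost without Rnf40+/+ replicate 1 (adjusted p = 0.096) or 3 (adjusted p = 0.0876), without Rnf40-/- replicate 2 (adjusted p = 0.0726) or 3 (adjusted p = 0.113), with a replicate block (adjusted p = 0.0548) and with no filter on low counts (adjusted p = 0.0656), all from limma, and in the Wald test of DESeq2 (adjusted p = 0.101). Over all 39 tested receptor and ligand genes that are not among the 10 chains, 9 were higher, 8 were lower and 22 did not pass, with a median log2 fold change of -0.10. The 9 include Il23r and Il31ra and the 8 include Il20ra, each of which entered the test only through the genotype in which it was higher.

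Jak1 and Jak2, kinases that several of these receptors share, rose, and a feedback inhibitor fell. Jak1 had 4345, 4928 and 4302 normalized counts in Rnf40+/+ and 8165, 8472 and 8325 in Rnf40-/- MEFs, without overlap (log2 fold change 0.88, SE 0.068, limma adjusted p = 1.07e-06). Jak2 rose from 932 ± 40.8 to 1370.9 ± 81.7 normalized counts (mean ± SD, n = 3 each; log2 fold change 0.56, SE 0.074, limma adjusted p = 7.59e-05). The kinases Jak3 (log2 fold change -0.44, limma adjusted p = 0.0972) and Tyk2 (log2 fold change 0.19, limma adjusted p = 0.106) did not pass. Socs1, an inhibitor of JAK kinases that cytokines induce, had 116, 103 and 131 normalized counts in Rnf40+/+ and 38.7, 28.2 and 55.7 in Rnf40-/- MEFs (log2 fold change -1.54, SE 0.25, limma adjusted p = 0.000308). Stat6, the transcription factor of IL-4 and IL-13, had 1772.9 ± 106 and 1745.5 ± 47.3 normalized counts and did not pass (log2 fold change -0.021, SE 0.068, limma adjusted p = 0.821). Socs3, of the gp130 signalling list, did not pass either (log2 fold change 0.13, limma adjusted p = 0.538). Stat6, Jak3, Tyk2 and Socs3 were named after their values were seen. In the IL-4 and IL-13 signalling list 3 of 10 tested genes were higher (Jak1, Jak2 and Irs1) and 3 lower (Socs1, Cish and Ptpn6). The higher count was 2 without Rnf40+/+ replicate 3 or Rnf40-/- replicate 1 or 3. The lower count was 2 without Rnf40+/+ replicate 2 or 3 or Rnf40-/- replicate 3, and 1 without Rnf40-/- replicate 1 or 2. Ptpn6 no longer passed without Rnf40+/+ replicate 3 (log2 fold change -0.45 instead of -0.70, limma adjusted p = 0.148) or any single Rnf40-/- library (adjusted p between 0.0544 and 0.106).

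Genes known to respond to STAT6 did not move one way. Postn, a matrix protein that IL-13 induces in fibroblasts, fell from 25671.5 ± 5140 to 4497.2 ± 288 normalized counts (mean ± SD, n = 3 each; log2 fold change -2.50, SE 0.11, limma adjusted p = 2.26e-08). Vcam1, an adhesion molecule, fell from 5009.5 ± 432 to 2988.5 ± 112 (log2 fold change -0.74, SE 0.072, limma adjusted p = 6.39e-06). Arg1, which encodes arginase, had 38.2, 26.5 and 28.7 normalized counts in Rnf40+/+ and 72.4, 78.3 and 68.0 in Rnf40-/- MEFs (log2 fold change 1.21, SE 0.23, limma adjusted p = 0.000937). The remaining tested genes of this list were low. Ccl11, or eotaxin, had 55.5 ± 35.0 and 30.6 ± 4.31 normalized counts (limma adjusted p = 0.163). Its log2 fold change was -1.05 (limma adjusted p = 0.0397) without Rnf40+/+ replicate 2. It was only -0.20 without Rnf40+/+ replicate 3, the highest library with 95.0 normalized counts. Fcer2a had 15.4 ± 3.07 and 19.7 ± 1.22 normalized counts (limma adjusted p = 0.415). All of these genes have other inducers besides STAT6.

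In the gp130 signalling list 4 of 10 tested genes were higher (Jak1, Jak2, Gab1 and Ptpn11). Gab1, an adaptor of gp130, rose from 571 ± 20.3 to 1011.9 ± 53.5 normalized counts (mean ± SD, n = 3 each; log2 fold change 0.82, SE 0.077, limma adjusted p = 4.67e-06). Among 9 tested STAT3 target genes 4 were higher (Junb, Pim1, Lbp and Fgl2) and 2 were lower (Timp1 and Cebpb). Timp1, an inhibitor of matrix metalloproteinases, fell from 9226.3 ± 410 to 4107.7 ± 311 normalized counts (mean ± SD, n = 3 each; log2 fold change -1.17, SE 0.071, limma adjusted p = 1.75e-07), and Lbp, an acute phase protein, rose from 24.6 ± 5.81 to 58.3 ± 8.68 (log2 fold change 1.23, SE 0.27, limma adjusted p = 0.00244). The calls of Fgl2 and Cebpb were not stable. Fgl2 (log2 fold change 0.94, limma adjusted p = 0.0407) passed only without Rnf40+/+ replicate 3 among the libraries left out and in neither edgeR (adjusted p = 0.0946) nor DESeq2 (adjusted p = 0.0577), and it did not pass with no filter (limma adjusted p = 0.0587). Cebpb (log2 fold change -0.37, limma adjusted p = 0.0452) passed only without Rnf40+/+ replicate 1 or 2 among the libraries left out, and neither under TMM normalization (limma adjusted p = 0.0565) nor with no filter (limma adjusted p = 0.0574). Without Rnf40+/+ replicate 3 its log2 fold change was -0.16. With single libraries left out, between 2 (without Rnf40-/- replicate 1) and 6 (without Rnf40+/+ replicate 3) genes of this list were higher, and 1 to 3 were lower.

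Downstream of IL-1R1 and ST2, 7 of 17 tested signalling genes were higher and 3 were lower (Irak1, Irak2 and Nfkb2). Tollip, an adaptor that binds IL-1R1, had 1696, 1857 and 1905 normalized counts in Rnf40+/+ and 3333, 3365 and 3432 in Rnf40-/- MEFs (log2 fold change 0.89, SE 0.066, limma adjusted p = 6.88e-07). Tab3, a subunit of the TAK1 kinase complex, rose from 222 ± 21.3 to 469 ± 39.7 normalized counts (mean ± SD, n = 3 each; log2 fold change 1.07, SE 0.11, limma adjusted p = 1.1e-05). Irak2, a kinase of the receptor complex, fell from 1033.4 ± 48.2 to 652 ± 21.5 (log2 fold change -0.66, SE 0.074, limma adjusted p = 1.98e-05), and Nfkb2, a subunit of NF-kB, from 972 ± 81.5 to 613 ± 55.6 (log2 fold change -0.67, SE 0.092, limma adjusted p = 0.000102). Of 12 NF-kB target genes tested, 4 were higher (Cxcl1, Ccl2, Ccl20 and Icam1) and 4 lower (Il6, Tnfaip3, Ptgs2 and Birc3). The lower count was 3 without Rnf40+/+ replicate 1 or 2 or Rnf40-/- replicate 1, and 2 without Rnf40-/- replicate 2 or 3. The chemokine gene Ccl20 had 109, 92.8 and 110 normalized counts in Rnf40+/+ and 305, 258 and 282 in Rnf40-/- MEFs (log2 fold change 1.43, SE 0.13, limma adjusted p = 4.81e-06), and Cxcl1, a neutrophil chemokine, rose from 59.3 ± 15.2 to 131 ± 22.8 (log2 fold change 1.15, SE 0.22, limma adjusted p = 0.00107). Birc3, an inhibitor of apoptosis, fell from 293 ± 10.5 to 225 ± 17.7 (log2 fold change -0.38, limma adjusted p = 0.0127), and no longer passed without Rnf40-/- replicate 3 (limma adjusted p = 0.0549).

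Several of these receptors are released from the cell surface by metalloproteinases. Of 7 tested genes of metalloproteinases and their regulators 4 were higher (Adam10, Adam17, Rhbdf1 and Adamts1) and 2 lower (Mmp9 and Mmp14). Which of them release the chains described here was not tested. Adam17, which sheds IL-6Rα, had 1162, 1123 and 1013 normalized counts in Rnf40+/+ and 1751, 1825 and 1664 in Rnf40-/- MEFs (log2 fold change 0.67, SE 0.075, limma adjusted p = 1.88e-05). Mmp14, a membrane-bound protease, had 11412, 10224 and 11609 normalized counts in Rnf40+/+ and 4422, 4385 and 4490 in Rnf40-/- MEFs (log2 fold change -1.32, SE 0.066, limma adjusted p = 4.66e-08). Over all 104 tested genes of the receptor, ligand, signalling, target and protease lists, 34 were higher and 24 were lower, with a median log2 fold change of 0.017 against -0.0035 over all genes tested. Among all genes tested, 23.3% were higher and 24.1% were lower. The counts of 34 and 24 include Il23r, Il31ra and Il20ra, each of which entered the test only through the genotype in which it was higher. With at least 10 reads required in every library, 32 genes of these lists were higher and 22 lower.

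**Figure D4:**
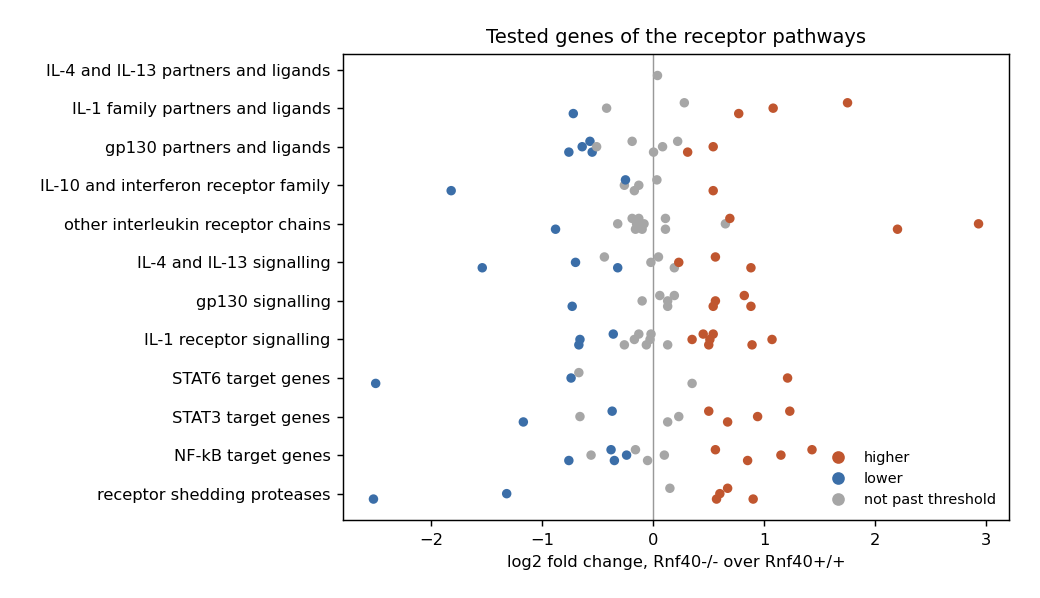
Log2 fold change (Rnf40-/- over Rnf40+/+) of each tested gene in 12 lists of receptor partners, ligands, signalling proteins, target genes and proteases, coloured by call from limma with an adjusted p under 0.05 (orange higher, blue lower, grey not past the threshold). Of 104 genes, 34 are higher and 24 lower, and most lists hold genes on both sides of 0. These counts include Il23r, Il31ra and Il20ra, each of which entered the test only through the genotype in which it is higher.

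The genes whose profile over the 6 libraries was nearest to that of Il13ra2 were Sprr2a1, Elmod1, Kel, Abcb11 and Defb1, by Euclidean distance between log2(normalized count + 1) values minus the Rnf40+/+ mean. Their distances were 2.13, 2.2, 2.23, 2.32 and 2.58. Each was at or near the limit of detection in Rnf40+/+ MEFs and entered the test only through its Rnf40-/- libraries. Because these genes were picked by their likeness to the profile of Il13ra2, their strong rise follows from that choice. Sprr2a1, an epithelial envelope protein, had 10.7, 7.14 and 1.6 normalized counts in Rnf40+/+ and 117, 116 and 97.3 in Rnf40-/- MEFs. Elmod1 had 9.55, 13.3 and 3.19 in Rnf40+/+ and 122, 184 and 145 in Rnf40-/- MEFs. Kel had no read in Rnf40+/+ libraries and between 28 and 43 reads in Rnf40-/- libraries. Nearest to Il1rl1 was Sipa1, at a distance of 0.0987, followed by Glipr1, Prune2, Srek1ip1 and Lclat1 at 0.124 to 0.145. These 5 genes were left at between 46.8% and 47.4% of their Rnf40+/+ levels, against 46.5% for Il1rl1. Similar percentages follow from the choice, since the distance compares changes from the Rnf40+/+ mean. Distances grow with the spread of genes with few reads and with the size of the change, and carry no test.

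Markers of other cell types were examined for the same libraries. Of 5 endothelial markers tested, Pecam1, Cdh5 and Kdr were higher and Emcn was lower in Rnf40-/- MEFs, with a summed level between 146 and 282 in Rnf40+/+ and between 234 and 333 in Rnf40-/- MEFs. Pecam1 and Cdh5 entered the test only through their Rnf40-/- libraries and were near the limit of detection in Rnf40+/+ MEFs. Pecam1 had 3.75 ± 1.22 and 27.6 ± 8.34 normalized counts and Cdh5 2.76 ± 2.17 and 31.6 ± 8.03 (mean ± SD, n = 3 each). With at least 10 reads required in every library, 1 endothelial marker was higher. None of the 3 epithelial markers tested passed (summed level 33.7 to 107 and 39.7 to 64.2), and no T cell marker had enough reads to be tested (15.3 to 21.5 and 14.2 to 15.7). The part of endothelial or other cells in the rise of Il13ra2 was not tested.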

How the data were processed

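RNA-seq of 3 Rnf40+/+ and 3 Rnf40-/- MEF libraries was analysed from the deposited table. Per the labels and the study's methods, libraries were made with a directional kit, and the authors mapped reads to mm9 and normalized them with DESeq (version 1.14.0, with Bowtie2 version 2.1.0, in the submitters' processing notes). The counting tool and its strand setting are not given in the sources used here. The deposited values are a signal per gene, namely reads divided by 1 size factor per library. Dividing by the value of 1 read gave whole numbers for 100% of values in each library (tolerance 0.01 reads), and these reads were used.

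The filterByExpr function of edgeR (version 4.0.16), given the genotypes and these reads, kept 16378 of 29955 genes, and 7410 had no read. Genotypes were compared with limma (version 3.58.1, R version 4.3.3), as a linear model of log2(normalized count + 1) with genotype as the only term and a mean-variance trend in eBayes. Adjusted p values (Benjamini-Hochberg, across the genes kept) were called at 0.05. The added 1 understates fold changes of genes with few reads. An exact permutation test of 3 against 3 libraries cannot give a p below 0.1. Errors are SD over libraries or standard errors of limma, and the limit of detection is 3 reads. In a simulation of 16378 genes with 200 changed by 2 on the log2 scale, limma recovered 188 with 16 false calls, edgeR 190 with 20 and DESeq2 183 with 17. In the data 47.4% of genes were called, and the tested chains changed by less than in the simulation. The simulation therefore does not measure the errors of the calls made here. No pair of libraries was a duplicate (chi-square per gene 5.33 to 28.8 within and 75.5 to 116 between genotypes).

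The receptor chains and all gene lists were chosen with earlier results of these data known. Named genes are the 10 chains, Rnf40, the 5 genes nearest to Il13ra2 and to the chain with the largest fall, and, in each list, every gene where 5 or fewer were tested and otherwise the 2 largest rises and 2 largest falls past the threshold; not all are reported here, and further genes were named to complete counts of 5 or fewer after values were seen. Positions are from GENCODE vM1 (mm9) and promoters from RefSeq (GRCm38.p6). Alternatives were DESeq2 size factors, TMM and upper-quartile normalization, the quasi-likelihood test of edgeR and the Wald test of DESeq2 (version 1.42.0) on recovered reads, pseudocounts of 0.1 and 10, a replicate block, no filter or a filter of 10 reads in every library, and removal of each library. Levels as RPKM used recovered reads and annotated transcript lengths. Figures were drawn in Python (version 3.11.15). The ChIP-seq experiments were not analysed here.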

Additional observations from a re-analysis of the deposited data

How the results depend on the processing

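All calls of the 9 tested receptor chains kept their direction and side of the threshold under DESeq2 size factors, TMM and upper-quartile normalization, the quasi-likelihood test of edgeR, the Wald test of DESeq2, pseudocounts of 0.1 and 10 and no filter, and with the filter of 10 reads in every library, which drops Il13ra2. Single libraries moved more. When any 1 was removed, the log2 fold change of Il4ra ranged from -0.33 to -0.18 and was past the threshold only without Rnf40+/+ replicate 1, that of Il6st ranged from 0.087 to 0.19 and that of Il6ra from 0.28 to 0.71, each past the threshold without 1 library, and that of Il1rap ranged from -0.0069 to 0.14. The count of chains that were higher ranged from 0 to 1 and of those lower from 4 to 5. The difference of Il13ra2 was 3.86 with a pseudocount of 10, which shrinks genes with few reads, and ranged from 4.36 to 5.80 with libraries left out. That pseudocount also gave 1.15 for Il23r, 1.27 for Il31ra and -1.09 for Il20ra. Signs turned with single libraries removed for Il18r1 (-0.049 to 0.49), Il2rg (-0.11 to 0.24) and Krt14 (-0.74 to 0.22), none of which passed in any of these fits. The cause was not tested.

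The labels number the libraries of both genotypes 1 to 3. Deviations from the group means had correlations of 0.0118, 0.0174 and 0.0212 between same-numbered libraries. Between libraries of different numbers the correlations lay from -0.0531 to 0.0371. With 3 libraries per genotype these correlations cannot show whether same-numbered libraries were prepared together, and the labels do not say. A replicate block gave 4021 higher and 4196 lower genes instead of 3809 and 3955, and left the log2 fold changes and the calls of the 9 chains as they were, for example -1.10 for Il1rl1. It ended the call of Il21r and put Ms4a2, a mast cell marker (log2 fold change 1.48), past the threshold (limma adjusted p = 0.0372). At this depth a gene with few reads in 1 genotype, such as Il13ra2, has a fold change that is uncertain in size.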
